A study of Mus musculus with 57 samples.

Results

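The 10 genes described here belong to the core circadian clock and its nearest outputs: Arntl, Npas2, Per1, Per2, Per3, Nr1d1, Nr1d2, Dbp, Tef and Ciart. They were chosen by symbol, and all 10 were found among the 54307 gene rows of the table. Their levels were read in the livers of 57 mice, each sample being taken as 1 mouse. All were male, wild-type C57BL/6JJcl animals aged 6 weeks, after 1 week of acclimatisation. They had been without food for 12 h at dosing, and the livers were taken 24 h after it. A compound was given to 40 of them. By gavage, 4 mice received ANIT (alpha-naphthyl isothiocyanate, a bile duct toxicant), 6 received APAP (acetaminophen), 7 received MDA (methylene dianiline) and 5 received TAA (thioacetamide). By intraperitoneal injection, 7 mice received CCl4 (carbon tetrachloride) and 4 received GAL (galactosamine). ConA (concanavalin A, a lectin that activates T cells) was injected into the tail vein of 7 mice. Of the 17 vehicle mice, 13 received 0.5% methylcellulose by gavage, 2 received saline into the peritoneum and 2 received it into the tail vein. Corn oil is named among the vehicles, but no control group received it, so corn oil and compound cannot be told apart where it was used. The labels give neither the amount of compound nor the clock time at which a mouse was killed, and time of day and group therefore cannot be told apart.

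The circadian clock is a feedback loop of transcription factors that runs in nearly every cell, and in liver it times much of metabolism. BMAL1, the protein of Arntl, pairs with CLOCK or NPAS2 and activates genes through a DNA motif called the E-box, among them the Per genes, Nr1d1, Nr1d2, Dbp, Tef and Ciart. The PER and CRY proteins and CIART hold this pair in check, and the nuclear receptors REV-ERBα (Nr1d1) and REV-ERBβ (Nr1d2) repress Arntl and Npas2 through ROR elements. DBP and TEF are PAR bZIP factors that act on D-boxes in output genes. In undisturbed liver, Arntl and Npas2 peak at about the opposite time of day from Nr1d1 and Dbp, and Per1 also answers to glucocorticoid hormones.

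Levels are given as CPM, a gene's estimated count as a share of its library's total (counts-per-million units) after TMM scaling, a correction for differences in library composition. The deposited values fall with transcript length in the way of length-corrected counts, so CPM here is close to a level per length and levels of different genes may be set side by side. A gene is called where edgeR's quasi-likelihood test over all genes gave a Benjamini-Hochberg adjusted p under 0.05. Differences are log2 fold changes, compound minus vehicle, with their standard error (SE). In a whole-tissue sample, fewer cells of a type and less RNA per cell cannot be told apart. Library totals ran from 13826343 to 35075809 estimated counts, and mitochondrial transcripts took 5.11% to 25.4% of a library in the 50 libraries outside the ConA group. ConA libraries held 14.6% to 39.3%, beside 6.79% and 25.4% in the 2 intravenous saline libraries, and the part of this share in the ConA results was not tested. The 10 genes passed the filter on low values in each comparison. At most 3 estimated counts were found for Npas2 in 2 libraries, for Per3 in 3 and for Ciart in 2.

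The tissue matched its label: the summed level of 6 hepatocyte genes (Alb, Apoa1, Ttr, Cps1, Serpina1a and Cyp2e1) was 20551 CPM or more in each of the 57 libraries. It lay at 20551 to 32009 CPM in CCl4 livers and 28161 to 36052 in GAL livers against 54968 to 117420 in the vehicle livers, and 6 of the 6 genes were called lower with both compounds. The sum of 5 neutrophil genes (S100a8, S100a9, Retnlg, Csf3r and Ly6g) was 126 to 287 CPM in ConA livers and 157 to 814 in TAA livers, against 2.04 to 60.8 in the vehicle livers. Ly6g was at 0 in 36 libraries. Of the neutrophil genes tested, 5 of 5 were called higher with TAA, 4 of 5 with ConA, 4 of 4 with GAL (sums of 24.8 to 40.3 CPM against 5.34 and 5.38 in its saline mice), 3 of 4 with APAP, 2 of 4 with MDA, 2 of 4 with CCl4 and 1 of 4 with ANIT. The 4 Kupffer cell genes summed to 16.2 to 39.98 CPM in ConA livers against 113 to 287 in the vehicle livers, with 4 of 4 called lower. The 4 cholangiocyte genes (Krt7, Krt19, Epcam and Sox9) summed to 30.02 to 68.3 CPM in ConA livers and 12.2 to 25.8 in TAA livers against 3.91 to 10.3 in the vehicle livers, with 2 of 4 called higher in each. The 4 sinusoidal endothelium genes summed to 47.05 to 67.2 CPM in CCl4 livers against 75.3 to 127 in the vehicle livers (2 of 4 called lower), and the 5 monocyte and macrophage genes to 198 to 298 in GAL livers against 55.1 to 164 (2 of 5 called higher). With APAP 3 of 5 monocyte and macrophage genes were called higher, at 149 to 251 CPM, and with MDA 3 of 4 stellate cell genes were called lower, their sum overlapping the vehicle livers at 25.99 to 88.4 CPM. The part of these cell shifts in the clock gene results was not tested.

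The vehicle mice differed among themselves in some clock genes, and the comparisons with them carry that spread. The 13 gavage mice carry the numbers 1 to 4, 7 to 10, 12 and 15 to 18, and the mice numbered 15 to 18 stood apart in several clock genes. Nr1d1 was at 14.3, 45.7, 47.3 and 32.8 CPM in mice 1 to 4, at 49.8, 43.0, 54.7, 59.2 and 71.0 in mice 7 to 10 and 12, and at 4.43, 7.49, 2.94 and 12.1 in mice 15 to 18. Every mouse numbered 15 to 18 thus lay under every other gavage mouse. The number ranges were drawn with earlier results of these data known, so tests between them are not independent of the data. Against the mice numbered 7 to 12, the difference was -3.04 ± 0.39 (SE) on the log2 scale, with an edgeR adjusted p of 0.0137. Dbp was at 1.01 to 1.44 CPM in mice 15 to 18 and at 3.54 to 13.53 in mice 7 to 12, a difference of -2.30 ± 0.45 (adjusted p 0.0436). Tef stood at 12.1 to 17.7 against 26.5 to 51.8 CPM, a difference of -1.20 ± 0.24 (adjusted p 0.0455). These 3 genes made up the members called between the ranges, all lower in mice 15 to 18, while 1.18% of all genes tested were called in either direction and 0.365% lower. Per3 (0.443 to 0.862 against 0.953 to 2.33 CPM) did not overlap either, but its adjusted p was 0.155. In all 4 members did not overlap, beside 6.94% of all genes.

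The calls between these ranges were fragile. Leaving out 1 mouse at a time left 0 to 2 called members. Without mouse 15 or without mouse 16 no member was called, Nr1d1 then having log2 fold changes of -2.88 (adjusted p 0.0571) and -3.11 (adjusted p 0.0526). The Dbp call was lost without any of mice 7 to 10 and 15 to 18 (adjusted p 0.0563 to 0.121) and the Tef call without any of mice 7, 8, 9, 12, 15, 16 and 18 (adjusted p 0.0617 to 0.121). Mice 1 to 4 against 15 to 18 gave 0 called members with edgeR, 4 at an unadjusted p under 0.05 and 3 with DESeq2, where 0.791% of all genes were called by edgeR. Nr1d1 differed there by 2.38 ± 0.49 (adjusted p 0.0605), and it and Tef were the 2 members without overlap, beside 9.75% of all genes. Mice 1 to 4 against 7 to 12 gave 0 called members with edgeR, 0 at an unadjusted p under 0.05 and 0 with DESeq2, beside 2.73% of all genes. The neutrophil sum was 2.04 to 3.50 CPM in mice 1 to 4, 3.25 to 16.1 in mice 7 to 12 and 9.54 to 60.8 in mice 15 to 18, with 0 of 3 genes called between the first 2 ranges, 0 of 4 between the last 2 and 1 of 3, lower in mice 1 to 4, between the first and the last. Lower in mice 1 to 4 than in mice 7 to 12 were 4 of 4 Kupffer cell genes (sums of 113 to 137 against 221 to 287 CPM) and 3 of 4 monocyte and macrophage genes (55.1 to 63.7 against 127 to 164), and 0 of 4 of either list were called between mice 15 to 18 and 7 to 12. Between mice 1 to 4 and 15 to 18, 1 of 4 Kupffer cell genes was called, lower in mice 1 to 4. The part of these levels in the clock gene results was not tested.

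**Figure D1:**
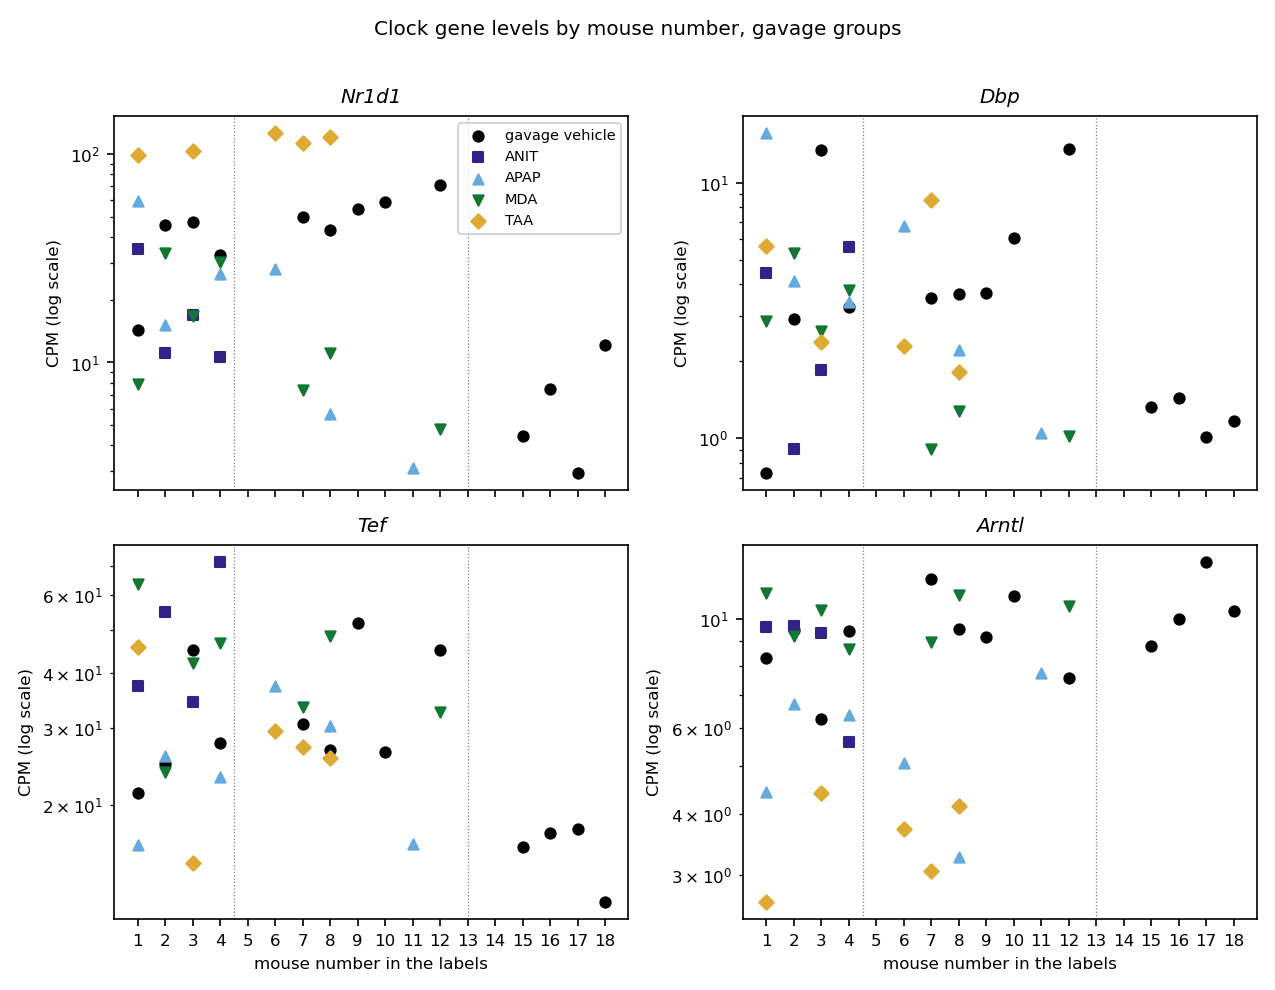
Levels of Nr1d1, Dbp, Tef and Arntl (CPM, log axis) against the mouse number in the labels for the 5 gavage groups, 1 point per mouse, with dotted lines after the numbers 4 and 12. Vehicle mice 15 to 18 hold 2.94 to 12.1 CPM of Nr1d1 and the vehicle mice 7 to 12 hold 43.0 to 71.0, while Arntl overlaps between the ranges.

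Arntl and Npas2 did not show this split. Arntl was at 6.25 to 9.51 CPM in mice 1 to 4, 7.58 to 12.0 in mice 7 to 12 and 8.81 to 13.1 in mice 15 to 18, and Npas2 at 2.20 to 3.43, 1.48 to 3.77 and 2.45 to 6.79. The saline mice, all numbered 7 or 8, lay near the gavage mice for most members. Against the 13 gavage mice 0 members were called for intraperitoneal saline and 0 for intravenous saline, also 0 at an unadjusted p under 0.05 and 0 with DESeq2 in both, beside 0.0131% and 0.0263% of all genes. With 2 mice in a saline group such a comparison has little power: for Nr1d1, intravenous saline against gavage was -0.63 ± 0.92, with a 95% interval from -2.63 to 1.36. Nr1d1 was at 46.6 and 57.6 CPM in the intraperitoneal and at 21.4 and 23.2 in the intravenous saline mice.

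Arntl, the gene of the clock's main activator, fell with 4 of the 7 compounds and was called higher with none. In GAL livers it was at 4.03, 1.67, 1.51 and 2.27 CPM against 14.3 and 9.80 with saline, all GAL mice lying under both saline mice. The difference was -2.37 ± 0.42 (adjusted p 0.0104) and lost its call without saline mouse 7 (-1.99, adjusted p 0.0758), but against the 17 vehicle mice it was -2.14 ± 0.24 (adjusted p 9.7e-08). In TAA livers Arntl was at 2.64, 4.40, 3.73, 3.05 and 4.15 CPM, and the 13 gavage mice ran from 6.25 through a median of 9.51 to 13.1. The TAA mice thus lay under every gavage mouse, at -1.37 ± 0.16 (adjusted p 8.5e-07). APAP livers held 3.27 to 7.74 CPM, overlapping the gavage mice, at -0.75 ± 0.17 (adjusted p 0.00215). The APAP call was lost within mice 1 to 4 (-0.48, adjusted p 0.291) and within mice 5 to 12 (-0.85, adjusted p 0.0622). CCl4 livers held 5.63 to 8.81 CPM, at -0.72 ± 0.23 (adjusted p 0.0408). The CCl4 call was lost without saline mouse 7 (-0.39, adjusted p 0.395) and with scaling to the library total (-0.29, adjusted p 0.470), and also with no filter, with the number range as covariate and within mice 5 to 12 (adjusted p 0.0805, 0.0640 and 0.0646).

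ConA livers spread widely in Arntl, at 5.25, 6.14, 6.35, 9.85, 7.41, 3.13 and 4.90 CPM, all under the intravenous saline mice at 10.8 and 13.4. The difference of -0.92 ± 0.33 had an adjusted p of 0.0524, and against the 17 vehicle mice -0.63 ± 0.17 was called (adjusted p 0.00178). ANIT and MDA livers were not called, with -0.17 ± 0.17 and 0.07 ± 0.12. Their 95% intervals ran from -0.53 to 0.19 and from -0.18 to 0.31, so a fall of the size seen with TAA lies outside both.

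Npas2, the partner of BMAL1 that can stand in for CLOCK, fell with 5 of the 7 compounds. ANIT livers held 0.506, 0.303, 0.555 and 0.213 CPM, and the 13 gavage mice held 1.48 to 6.79 with a median of 2.94. No ANIT mouse reached a gavage mouse, and the difference was -3.003 ± 0.391 (adjusted p 3.1e-05). TAA livers (0.103 to 0.734 CPM) differed by -2.81 ± 0.42 (adjusted p 1.5e-05) and GAL livers (0.283 to 0.701 against 3.34 and 2.95) by -2.84 ± 0.42 (adjusted p 0.00606). ConA livers held 0.150 to 1.34 CPM against 3.18 and 2.03 with intravenous saline, at -1.94 ± 0.64 (adjusted p 0.0387). Without saline mouse 7 the ConA value was -1.53 (adjusted p 0.239) and without saline mouse 8 it was -2.24 (adjusted p 0.0738), and the call was also lost with no filter, with the number range as covariate and within mice 5 to 12 (adjusted p 0.0589, 0.111 and 0.129), while against the 17 vehicle mice it was -2.13 ± 0.33 (adjusted p 3.5e-06).

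APAP livers spread in Npas2 from 0.324 to 2.97 CPM, at -1.24 ± 0.36 (adjusted p 0.0135). The APAP call was lost within mice 1 to 4 (-1.20, adjusted p 0.110), within mice 5 to 12 (-0.80, adjusted p 0.378), without the gavage mice 15 to 18 (-0.99, adjusted p 0.0520) and with scaling to the library total (-1.06, adjusted p 0.0518). MDA and CCl4 were not called, at -0.48 ± 0.32 and -0.82 ± 0.34, though against the 17 vehicle mice CCl4 was called lower, at -0.86 ± 0.23 (adjusted p 0.00263). In MDA livers a single animal, mouse 1 at 0.312 CPM, lay in the range of the ANIT livers and the other 6 were at 1.28 to 3.32. In ANIT livers Npas2 was thus called and Arntl was not. An F test over the 4 gavage compounds called both Arntl (adjusted p 0.000169) and Npas2 (adjusted p 0.00632), so the compounds differed in these genes.

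**Figure D2:**
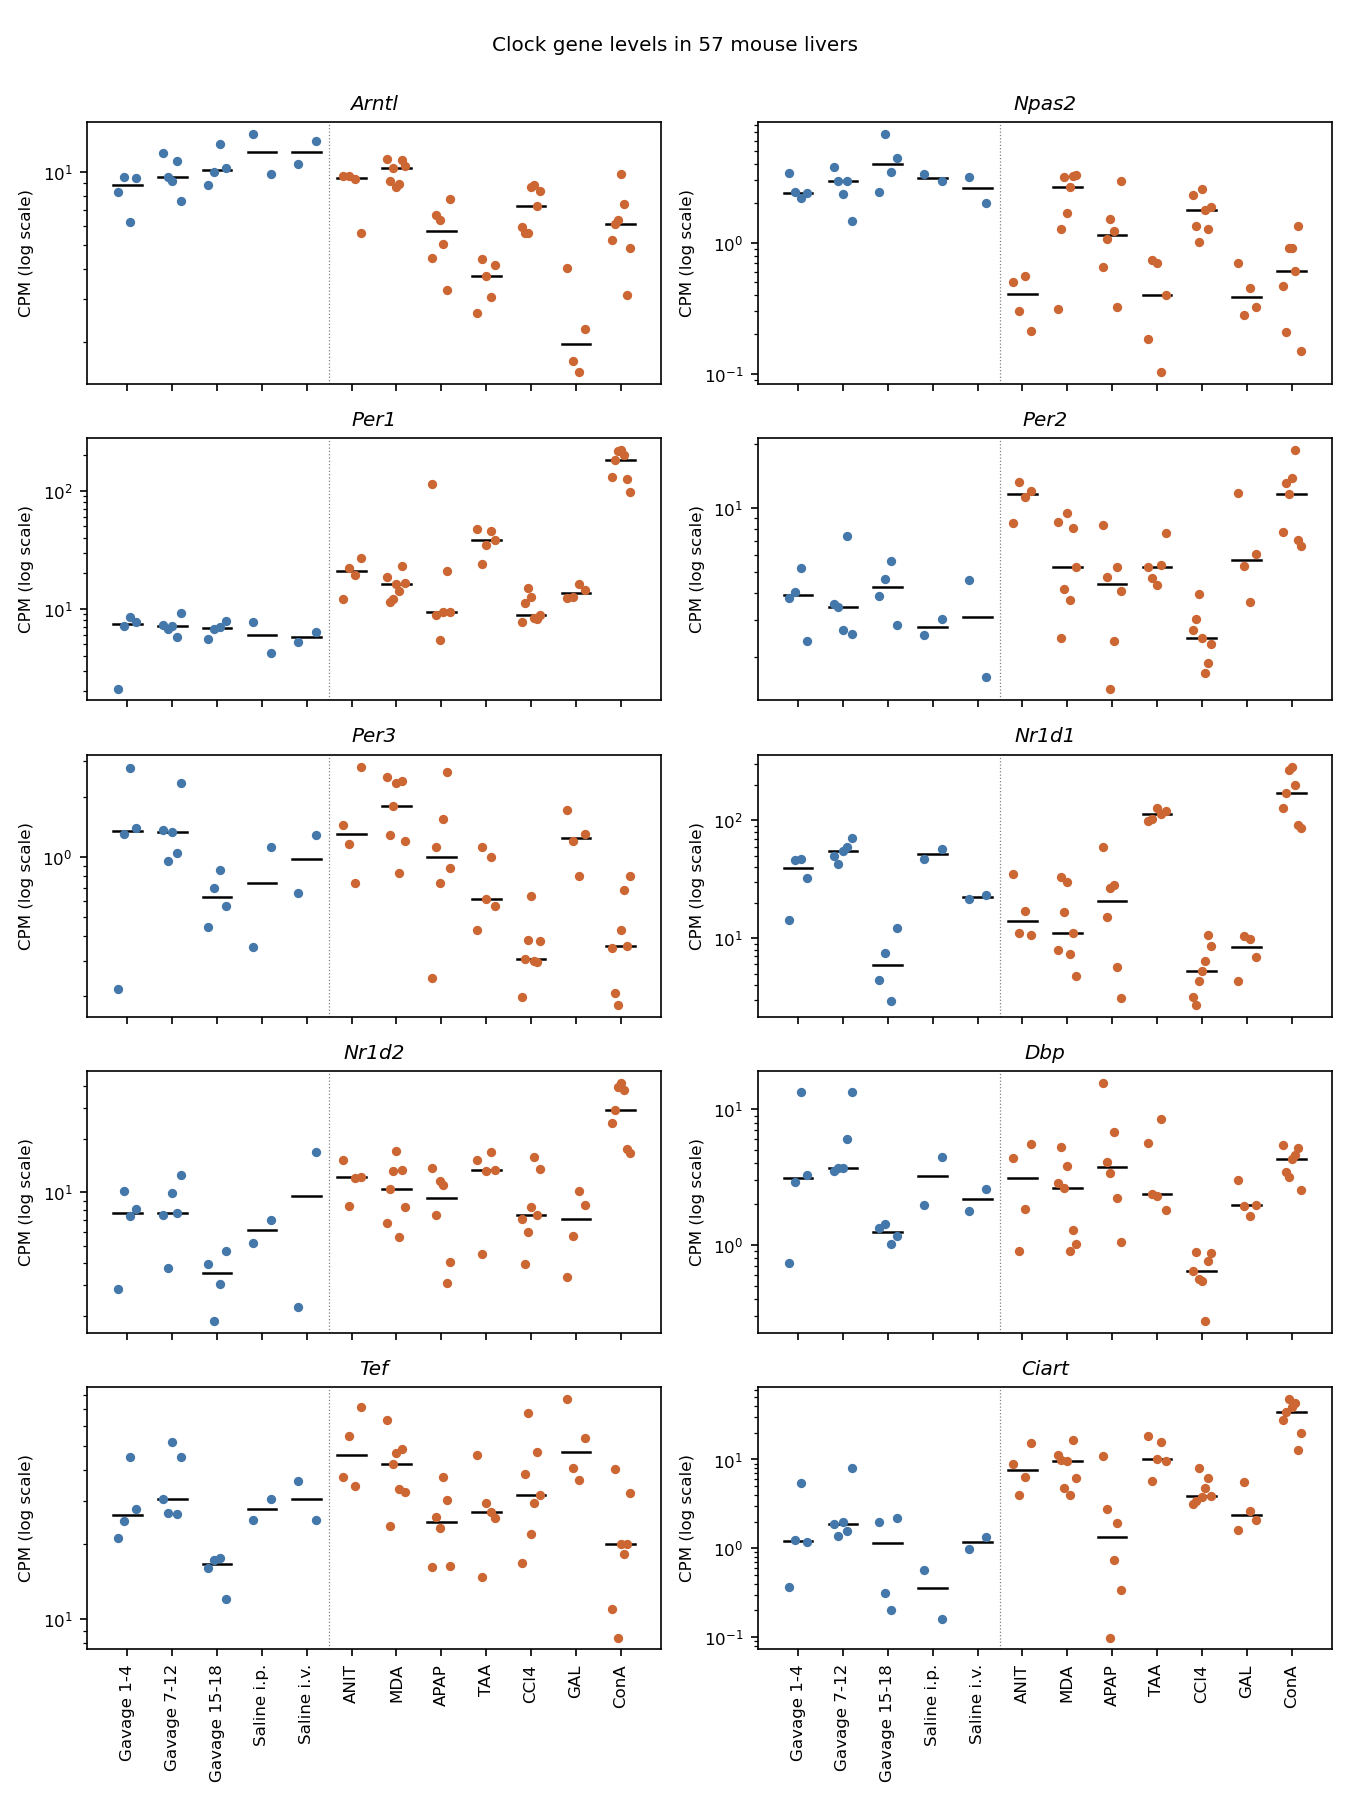
Levels of the 10 clock genes (CPM, log axis) in each of the 57 mice, vehicle groups in blue and compounds in orange, with black bars at the group medians and the gavage vehicle mice divided by number. Per1 in ConA livers lies between 96.8 and 220 CPM, and the 17 vehicle mice lie between 2.12 and 9.15.

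The PER proteins and CIART act as repressors of the BMAL1 pair, and in the promoters of Ciart and Per1 the E-box letters themselves can be seen. RefSeq promoter entries matched 9 of the 10 members, with Per2 unmatched. The 250 bases before each annotated start were searched on both strands for the E-box CACGTG, which reads the same on both, for the D-box TTANGTAA and for the ROR elements TAGGTCA and TGGGTCA. Both sequences are shown because Ciart and Per1 rose in most groups and had the highest Pearson's r between members, and capitals mark the E-box. They are printed 5′ to 3′ on the strand of the gene, from RefSeq on build GRCm38.p6, Ciart from chr3:95882229-95882478 on the minus strand and the first Per1 start from chr11:69098699-69098948 on the plus strand.
Ciart: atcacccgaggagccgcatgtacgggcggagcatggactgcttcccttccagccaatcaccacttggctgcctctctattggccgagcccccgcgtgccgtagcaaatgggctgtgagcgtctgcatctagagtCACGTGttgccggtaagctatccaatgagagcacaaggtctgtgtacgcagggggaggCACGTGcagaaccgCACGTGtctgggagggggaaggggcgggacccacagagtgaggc
Per1: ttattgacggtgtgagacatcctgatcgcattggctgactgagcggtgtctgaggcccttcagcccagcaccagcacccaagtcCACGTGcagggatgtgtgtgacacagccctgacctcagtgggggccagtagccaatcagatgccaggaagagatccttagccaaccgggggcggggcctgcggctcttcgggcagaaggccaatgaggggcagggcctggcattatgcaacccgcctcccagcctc
The E-boxes of Ciart begin 116, 58 and 44 bases before the start, and that of the first Per1 start begins 166 bases before it, while the window of the second Per1 start holds none. Of 32536 promoter windows of this length 6.04% hold the E-box, and 20 hold 3 or more. Tef has 1 E-box in each of its 2 windows, so 3 of 9 members hold it in at least 1 window, beside 6.88% of 26734 genes. For the windows of Nr1d1, Nr1d2 and Dbp and the second of Arntl, the bases just after the start were not found in that gene's reference transcripts. These windows are counted among those without an E-box. The ROR elements were in windows of 6.18% of genes and of 0 members. An element with other letters, or one at or past the start, would be missed by this search. A match describes these letters in this window and is not a measured binding site.

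Per1 rose with 6 of the 7 compounds, more widely than any other member except Ciart, which also rose with 6. ConA livers held 130, 181, 216, 220, 201, 125 and 96.8 CPM of Per1, and the intravenous saline mice held 5.28 and 6.31. The difference was 4.90 ± 0.42 (adjusted p 4.8e-05), and against the 17 vehicle mice, at 2.12 to 9.15, it was 4.76 ± 0.18. TAA livers stood at 47.2, 24.0, 34.7, 45.5 and 38.6 CPM, at 2.53 ± 0.20 (adjusted p 5e-09). ANIT livers (12.2, 22.3, 19.2 and 27.2 CPM) rose by 1.57 ± 0.23 (adjusted p 8.4e-05) and MDA livers (11.4 to 23.1 CPM) by 1.23 ± 0.18 (adjusted p 2.7e-05). Every TAA, ANIT and MDA mouse lay above every gavage mouse. Within mice 1 to 4 the MDA value was 1.17 and not called (adjusted p 0.0869).

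APAP livers were carried by 1 animal. Per1 was at 113 CPM in mouse 1 and at 8.92, 5.47, 9.34, 21.0 and 9.40 in mice 2, 4, 6, 8 and 11, so mice 2 and 4 lay within the range of the vehicle mice and mice 6 and 11 just above their highest value of 9.15. The log2 fold change of 2.07 ± 0.46 (adjusted p 0.00189) became 0.70 ± 0.26 (adjusted p 0.0492) without mouse 1, and it was not called within mice 1 to 4 (2.80, adjusted p 0.140) or within mice 5 to 12 (0.91, adjusted p 0.0577). That mouse also had the highest Nr1d1 (59.7 CPM), Dbp (15.7), Ciart (10.9) and Per2 (8.28) and the lowest Per3 (0.246) of the APAP group. Its library stood apart as well, with a TMM factor of 0.721 against 1.11 to 1.25 in the other APAP mice. Its hepatocyte sum was 93806 CPM against 66526 to 71517. The part of these in its clock gene levels was not tested. GAL livers held 12.4, 12.7, 16.2 and 14.4 CPM of Per1 against 7.81 and 4.22 with saline, at 1.19 ± 0.32 (adjusted p 0.0357). Leaving out GAL mouse 4, GAL mouse 7, GAL mouse 8 or saline mouse 8 took this call away, with adjusted p-values of 0.0693, 0.0663, 0.0827 and 0.141, as did no filter (0.0653) and the number range as covariate (0.0526), and against the 17 vehicle mice it was 1.05 ± 0.20 (adjusted p 0.00015). CCl4 livers (7.70 to 14.9 CPM) were not called against saline, at 0.79 ± 0.32 (adjusted p 0.0824), and were called against the 17 vehicle mice, at 0.61 ± 0.18 (adjusted p 0.00468).

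Ciart, also known as Chrono, rose with ANIT, MDA, TAA, CCl4, GAL and ConA. ConA livers held 28.2, 34.2, 47.6, 39.0, 43.3, 12.8 and 20.03 CPM against 0.983 and 1.35 with intravenous saline, at 4.82 ± 0.57 (adjusted p 0.000219). TAA livers (5.76 to 18.4 CPM) rose by 2.54 ± 0.54 (adjusted p 0.000646), MDA livers (4.01 to 16.7) by 2.07 ± 0.49 (adjusted p 0.00263) and ANIT livers (3.99 to 15.2) by 2.02 ± 0.61 (adjusted p 0.0200). These 3 groups overlapped the gavage mice, which ran from 0.203 to 7.96 CPM with mouse 12 at the top. Without ANIT mouse 4 the ANIT value was 1.59 (adjusted p 0.107). With only the mice numbered 1 to 4, Ciart kept its direction and lost its call in ANIT (2.05, adjusted p 0.0902), MDA (2.10, adjusted p 0.0808) and TAA livers (2.58, adjusted p 0.0924). The MDA call was also lost within mice 5 to 12 (1.59, adjusted p 0.120) and the ANIT call with the number range as covariate (2.06, adjusted p 0.116).

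In CCl4 livers Ciart was at 3.13 to 8.04 CPM and in GAL livers at 1.61 to 5.64, against 0.562 and 0.159 in the 2 intraperitoneal saline mice, of which the second held at most 3 estimated counts. The differences were 3.60 ± 0.57 (adjusted p 0.00117) and 2.90 ± 0.77 (adjusted p 0.0345). Against the 17 vehicle mice they were 1.37 ± 0.49 (adjusted p 0.0197) and 0.70 ± 0.66 (adjusted p 0.397), so the size of both rests on the low saline pair. The GAL call also went without any of GAL mice 4, 7 and 8 or of saline mice 7 and 8, with adjusted p-values of 0.0564, 0.0595, 0.0610, 0.0713 and 0.168, and with no filter (0.0569) and the number range as covariate (0.0771). APAP livers ran from 0.0985 to 10.9 CPM and were not called, at 0.40 ± 0.74 with a 95% interval from -1.16 to 1.97.

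Per2 was called in fewer groups than Per1. ANIT livers held 8.46, 13.2, 11.3 and 11.9 CPM, above every gavage mouse (2.39 to 7.41), and the rise was 1.49 ± 0.23 (adjusted p 0.000151). ConA livers held 7.69, 13.01, 11.6, 13.8, 18.6, 7.06 and 6.64 CPM against 4.59 and 1.61, at 1.88 ± 0.52 (adjusted p 0.0185). The ConA call was lost without saline mouse 8 (1.31, adjusted p 0.126) and with scaling to the library total (1.23, adjusted p 0.126) and within mice 5 to 12 (adjusted p 0.0631), and held against the 17 vehicle mice (1.68 ± 0.22). GAL livers (11.8, 5.35, 3.62 and 6.10 CPM against 2.54 and 3.03) were not called, at 1.27 ± 0.49 (adjusted p 0.0958), and were called against the 17 vehicle mice, at 0.80 ± 0.29 (adjusted p 0.0225). Against the same 17 mice MDA (0.68) and TAA (0.59) were also called higher, and CCl4 (-0.57 ± 0.23, adjusted p 0.0380) lower.

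Per3, the least abundant member, reached at most 2.83 CPM in any liver, and none of the 7 comparisons with the route's own vehicle called it. CCl4 livers held 0.199 to 0.637 CPM and ConA livers 0.181 to 0.799, while the 17 vehicle mice ran from 0.219 through 1.04 to 2.77. Against these 17 mice CCl4 was at -1.63 ± 0.38 (adjusted p 0.000844) and ConA at -1.19 ± 0.41 (adjusted p 0.0135), both groups overlapping the vehicle mice. Its promoter, shown because it is the single member window with D-boxes, holds TTATGTAA at 205 and at 158 bases before the start, in capitals, 5′ to 3′ on the minus strand, RefSeq build GRCm38.p6, chr4:151044666-151044915.
Per3: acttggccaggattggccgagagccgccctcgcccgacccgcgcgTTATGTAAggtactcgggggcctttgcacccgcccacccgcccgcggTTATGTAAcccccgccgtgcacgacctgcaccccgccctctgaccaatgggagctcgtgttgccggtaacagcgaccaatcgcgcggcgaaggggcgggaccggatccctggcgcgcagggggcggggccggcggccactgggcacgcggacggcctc
Of the 32536 windows, 2.03% hold a D-box.

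Of the REV-ERB genes, Nr1d1 moved in both directions. It was called higher with 2 and lower with 2. In ConA livers it was at 126, 170, 269, 286, 201, 91.2 and 86.0 CPM against 21.4 and 23.2, at 3.02 ± 0.53 (adjusted p 0.0019), and against the 17 vehicle mice, whose highest was 71.0, it was 2.43 ± 0.42. In TAA livers it was at 99.1, 104, 127, 114 and 120 CPM, each above every vehicle mouse, at 1.78 ± 0.51 (adjusted p 0.0071). Without the gavage mice 15 to 18, the TAA rise was 1.34 ± 0.25 (adjusted p 0.000317). In CCl4 livers Nr1d1 was at 3.18, 2.72, 4.35, 5.28, 6.40, 10.7 and 8.57 CPM against 46.6 and 57.6, at -3.10 ± 0.41 (adjusted p 0.000413). In GAL livers it was at 4.31, 10.5, 9.84 and 6.94 CPM, at -2.71 ± 0.36 (adjusted p 0.00437). CCl4 and GAL livers did not overlap the saline mice of their route, but at 2.72 to 10.7 CPM they lay close to the gavage vehicle mice 15 to 18 (2.94 to 12.1 CPM).

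ANIT livers (35.1, 11.1, 16.9 and 10.7 CPM of Nr1d1), MDA livers (4.77 to 33.4) and APAP livers (3.11 to 59.7) were not called against the 13 gavage mice, at -0.90 ± 0.69, -1.11 ± 0.56 and -0.54 ± 0.64. Without the gavage mice 15 to 18, an alternative chosen after the data were seen, ANIT was at -1.32 ± 0.39 (adjusted p 0.0221) and MDA at -1.57 ± 0.39 (adjusted p 0.00579), and APAP at -0.97 ± 0.51 (adjusted p 0.162). The call thus turns on these 4 vehicle mice.

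Nr1d1 also spread widely within the MDA and APAP groups. In MDA livers Nr1d1 was at 7.87, 33.4, 16.8 and 30.2 CPM in mice 1 to 4 and at 7.34, 11.1 and 4.77 in mice 7, 8 and 12. Of these, mice 7 and 12 had neutrophil sums of 131 and 115 CPM, against 8.44 to 35.8 in the other MDA mice, of which the lowest was mouse 1, also low in Nr1d1. In APAP livers it was at 59.7, 15.1, 26.5 and 28.1 CPM in mice 1, 2, 4 and 6 and at 5.67 and 3.11 in mice 8 and 11, which also had the highest neutrophil sums of their group, 195 and 261 CPM against 13.2 to 41.2. Within the mice numbered 5 to 12, MDA was at -2.84 ± 0.29 for Nr1d1 (adjusted p 0.000379) and at -2.50 for Dbp (adjusted p 0.0108), and within 1 to 4 Nr1d1 was at -0.69 ± 0.48 (adjusted p 0.396). The difference between the ranges in the MDA effect on Nr1d1, -2.16 ± 0.62, had a p of 0.00322 before and 0.379 after adjustment over all genes, and 0% of all genes were called for it. The same test called 0 members for APAP and 0 for TAA, with 1 and 0 at an unadjusted p under 0.05, beside 0.0135% and 0.0191% of all genes. In TAA livers Nr1d1 kept to 99.1 to 127 CPM over both ranges.

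Nr1d2 was called higher with 1 compound and lower with none. TAA livers held 15.4, 4.51, 13.2, 17.0 and 13.4 CPM against 1.86 to 12.6 in the gavage mice, at 1.05 ± 0.36 (adjusted p 0.0210). This call was lost within mice 1 to 4 (0.50, adjusted p 0.602), within mice 5 to 12 (0.86, adjusted p 0.0531), without TAA mouse 1 (adjusted p 0.0590), without TAA mouse 7 (adjusted p 0.0744) and without the gavage mice 15 to 18 (0.77, adjusted p 0.0622). ConA livers held 16.6 to 41.7 CPM, and the 2 intravenous saline mice differed widely, at 2.23 and 16.9. Accordingly the ConA value of 1.70 ± 0.66 was not called (adjusted p 0.0692), without saline mouse 8 it was 3.75 (adjusted p 0.00516), and against the 17 vehicle mice it was 2.24 ± 0.32 (adjusted p 8.4e-07). CCl4 and GAL livers, where Nr1d1 was low, were at 0.59 ± 0.49 and 0.20 ± 0.46 for Nr1d2, with 95% intervals from -0.56 to 1.75 and from -1.08 to 1.48.

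The PAR bZIP genes gave few calls. Dbp fell in CCl4 livers, at 0.646, 0.881, 0.557, 0.546, 0.274, 0.755 and 0.870 CPM against 1.98 and 4.46, with -2.26 ± 0.41 (adjusted p 0.0024). Without saline mouse 8 this was -1.59 (adjusted p 0.0717), and against the 17 vehicle mice, whose lowest was 0.730, it was -2.61 ± 0.55 (adjusted p 0.000238). In the other 6 groups Dbp was not called, with log2 fold changes from -0.77 (MDA) to 0.97 (ConA). Tef, at 8.44 to 76.8 CPM in all livers, was called in none of the 7 route comparisons, with values from -0.45 (ConA) to 0.90 (GAL). Against the 17 vehicle mice it was called higher with ANIT (0.82 ± 0.28, adjusted p 0.0300), GAL (0.84 ± 0.27, adjusted p 0.0123) and, just, MDA (0.57 ± 0.22, adjusted p 0.0498).

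**Figure D3:**
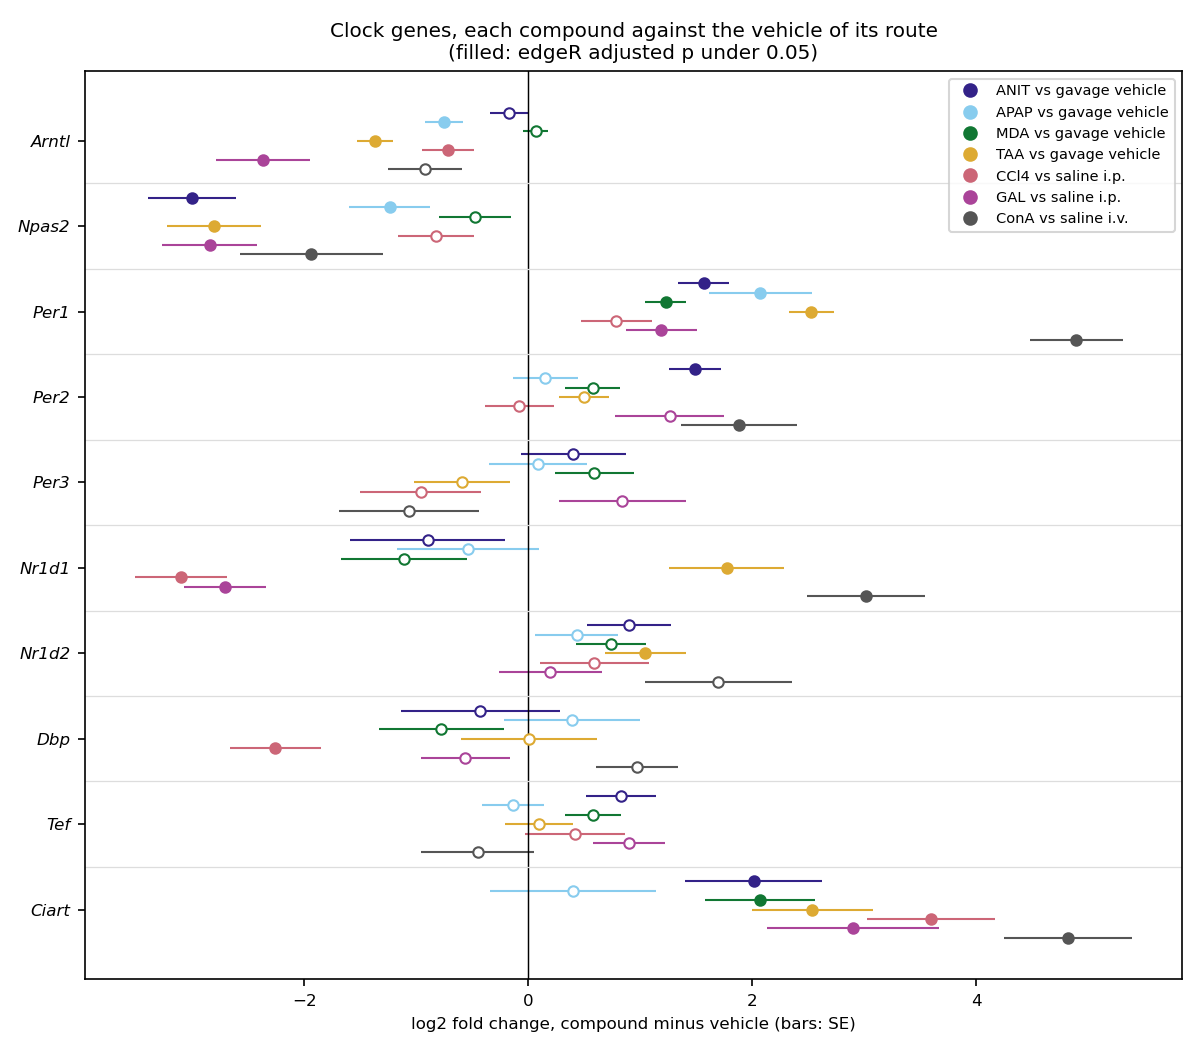
Log2 fold change of the 10 clock genes for each compound against the vehicle of its route, with bars for the SE and filled points where the edgeR adjusted p was under 0.05. Nr1d1 spans -3.10 in CCl4 livers to 3.02 in ConA livers, while Npas2 lies below 0 and Per1 above 0 for every compound.

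Counted over the members, ANIT called 4 (3 higher, 1 lower) where 28.2% of all genes tested were called (14% higher, 14.2% lower). APAP called 3 (1 higher, 2 lower) beside 31.8% of all genes (17.3% and 14.6%), and MDA 2, both higher, beside 33.8% (17.4% and 16.4%). TAA called 6 (4 higher, 2 lower) beside 50.5% (26.4% and 24%). CCl4 called 4 (1 higher, 3 lower) beside 33.5% (18% and 15.6%), and GAL 5 (2 higher, 3 lower) beside 28.5% (12.8% and 15.7%). ConA called 5 (4 higher, 1 lower) beside 34.2% (16.8% and 17.3%). These shares lie on both sides of the background. The median log2 fold change of the members was 1.34 with ConA, 0.61 with ANIT, 0.58 with MDA, 0.52 with GAL, 0.30 with TAA, 0.12 with APAP and -0.40 with CCl4, where the median of all genes stayed between -0.01 and 0.10. Against the 17 vehicle mice the counts were 5 for ANIT (28% of all genes), 3 for APAP (33.4%), 4 for MDA (34.2%), 7 for TAA (49.7%), 8 for CCl4 (53.4%), 6 for GAL (52.5%) and 8 for ConA (68%). Both sets of comparisons share the treated mice, and the 4 gavage compounds share their controls.

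Members whose treated mice all lay beyond every vehicle mouse of the route numbered 3 with ANIT, 0 with APAP, 1 with MDA and 4 with TAA, beside 8.95%, 6.69%, 4.76% and 20.2% of all genes. With 2 control mice such separation is common: it held for 5 members with CCl4, 7 with GAL and 6 with ConA, beside 40.9%, 52.3% and 39.9% of all genes. Scaling to the library total moved the median of all genes by more than 0.1 for ANIT (to -0.23), APAP (to 0.22), CCl4 (to 0.53), GAL (to 0.84) and ConA (to -0.56).

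CCl4 and GAL, both injected intraperitoneally, could be compared without a control group, and 5 members differed (2 higher and 3 lower with CCl4) beside 42.5% of all genes (22.2% higher and 20.3% lower). Arntl was 1.55 ± 0.27 higher with CCl4 (adjusted p 0.000858) and Npas2 1.93 ± 0.35 higher (adjusted p 0.00109). Per3 was lower with CCl4, at -1.86 ± 0.31 (adjusted p 0.000658), as were Dbp, at -1.77 ± 0.30 (adjusted p 0.000636), and Per2, at -1.43 ± 0.30 (adjusted p 0.00256). Nr1d1 did not pass, at -0.49 ± 0.37 with a 95% interval from -1.34 to 0.36. The 2 compounds with low Nr1d1 thus differed in Arntl, Npas2, Dbp, Per2 and Per3. Cell type markers differed too: lower with CCl4 were 4 of 4 sinusoidal endothelium, 3 of 4 Kupffer cell and 2 of 4 stellate cell genes. Of 5 monocyte and macrophage genes 1 was higher and 3 were lower, and of 6 hepatocyte genes 1 was higher and 1 lower. The part of these cell shifts in the clock genes was not tested. Among the 4 gavage compounds the F test called 5 members, Arntl, Npas2, Per2, Nr1d1 and Tef, beside 29.5% of all genes, with adjusted p-values of 0.0425 for Per2, 0.00123 for Nr1d1 and 0.0470 for Tef. The Per2 call was lost without any of ANIT mice 2, 3 and 4 or of TAA mice 3, 6 and 7 (adjusted p 0.0559 to 0.127). The Tef call was lost without any of ANIT mice 2 and 4, APAP mouse 1 and TAA mice 6, 7 and 8 (adjusted p 0.0645 to 0.107). Per1, with group means of 16.0 to 38.0 CPM over these 4 compounds, was not called (adjusted p 0.242), and its APAP mean rests on mouse 1. Without APAP mouse 1 the F test called 6 members, beside 37.6% of all genes. Of these, 4 were also called with that mouse. The Per2 and Tef calls of this F test were also lost with scaling to the library total (adjusted p 0.161 and 0.298), with no filter, with a mean CPM of at least 5 and with the number range as covariate (adjusted p 0.0598 to 0.104).

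Ranked by their median, the groups formed a continuous order for most members. Of 11 neighbouring pairs of groups, the ranges overlapped in all 11 for Arntl, Npas2, Per2, Per3, Tef and Ciart, in 10 for Per1, Nr1d1 and Nr1d2 and in 9 for Dbp. ConA led for Per1, Nr1d1, Nr1d2, Dbp and Ciart, and GAL was last for Arntl and Npas2. The ratio of the highest to the lowest group median was 94.9 for Ciart, 32.3 for Nr1d1, 31.2 for Per1 and 10.3 for Npas2, and 2.82 for Tef. The Ciart ratio rests on the 2 intraperitoneal saline mice, whose median of 0.361 CPM includes the library with at most 3 estimated counts, and the next lowest median was 1.14 CPM, in the gavage mice 15 to 18.

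The mice also varied within their groups, and some members did so together. After subtracting the mean of each of 12 groups (the 7 compounds, the 2 saline groups and the 3 gavage ranges) from log2(CPM + 1), the 45 pairs of members were correlated over 57 mice, with permutation p-values adjusted over the 45. Per1 and Ciart had Pearson's r 0.69 and Spearman's rho 0.60 (adjusted p 0.000225 and 0.00045), with r 0.55 without the 2 mice farthest from the median, 0.56 in the 17 vehicle mice and 0.73 in the 40 treated mice. Nr1d1 and Nr1d2 had r 0.65 and rho 0.71 (adjusted p 0.000225 and 0.00045), 0.63 without the 2 farthest mice. The smallest p that the permutations can give, 1e-05, was reached by r for both pairs.

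Dbp went with Ciart (r 0.60, rho 0.42, adjusted permutation p 0.00416 and 0.0239) and with Nr1d1 (r 0.57, rho 0.43, adjusted p 0.00225 and 0.0151), at r 0.46 and 0.43 without the 2 farthest mice. Npas2 ran the other way from Ciart (r -0.50, rho -0.53, adjusted permutation p 0.00546 and 0.003) and from Tef (r -0.43, rho -0.44, adjusted p 0.0085 and 0.0142), at -0.48 and -0.37 without the 2 farthest mice. Per1 and Per2 had r 0.48 over all mice (rho 0.42, adjusted permutation p 0.00546 and 0.0151) but -0.24 in the vehicle and 0.64 in the treated mice, and 0.32 without the 2 farthest mice. Arntl and Nr1d1 had r 0.04 and rho 0.05 (adjusted p 0.798 and 0.782). The activators Arntl and Npas2 had r 0.35 and rho 0.42 (adjusted permutation p 0.0306 and 0.0142), 0.45 without the 2 farthest mice.

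**Figure D4:**
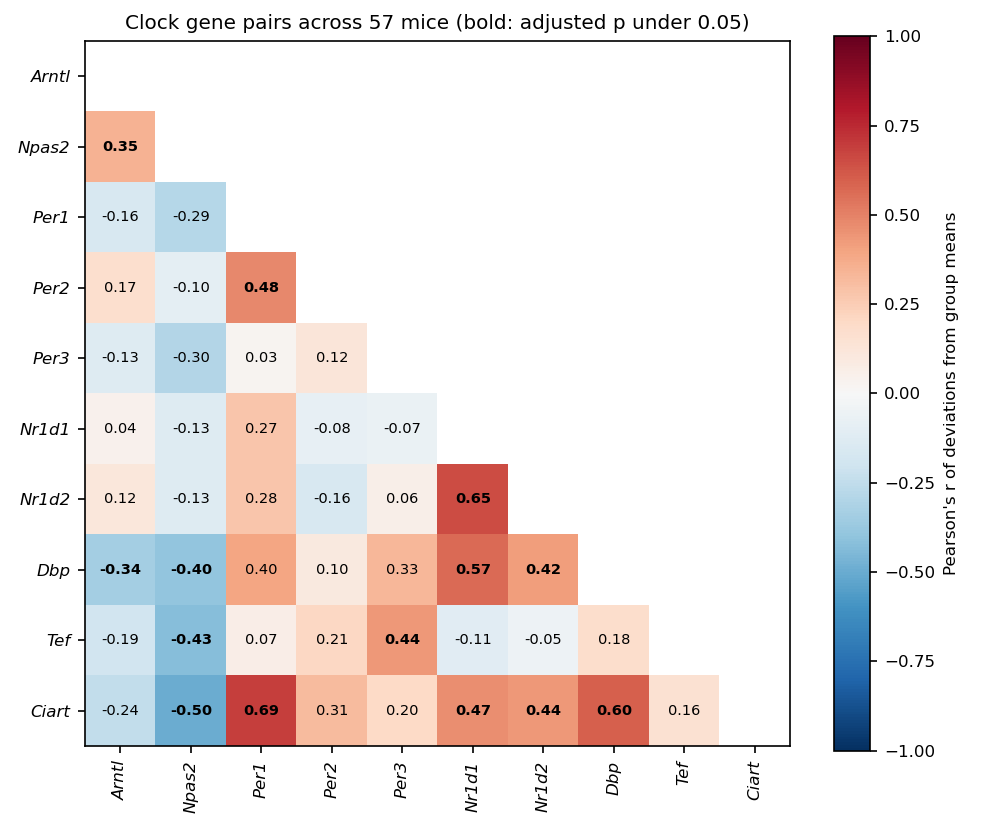
Pearson's r of each of the 45 member pairs across 57 mice, from deviations of log2(CPM + 1) from the group means, in red above 0 and blue below, bold where the adjusted permutation p of r was under 0.05. The highest value is 0.69 for Per1 and Ciart and the lowest is -0.50 for Npas2 and Ciart.

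Outside the members, 12372 genes averaging 1 CPM or more were ranked by the same within-group correlation with Arntl and with Dbp, as a description over the 57 mice, which share library depth and composition. Arntl was most like Clpx (r 0.69, rho 0.71), a mitochondrial protease subunit, Slc30a10 (0.66), Aifm1 (0.65), Zcwpw1 (0.60) and Immp1l (0.60), and most unlike Fam83h (-0.60), Zfp593 (-0.59), Gm45234 (-0.58), Chst15 (-0.58) and Ltbp3 (-0.57). The genes most like Dbp included Tns2 (r 0.53), Npc1 (0.52), Isoc2b (0.52) and Dedd2 (0.52), and those most unlike it included Gm22270 (-0.61), Cdc42se1 (-0.55), Dhx37 (-0.53) and Chtf8 (-0.53).

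The rest of the clock was read from a list of 18 other genes, of which 16 or 17 were tested per comparison. Called were 3 with ANIT (2 higher, 1 lower), 2 with APAP (1 and 1), 4 with MDA (3 and 1), 10 with TAA (7 and 3), 5 with CCl4 (3 and 2), 3 with GAL (1 and 2) and 8 with ConA (7 and 1). The shares of all genes called were 28.2%, 31.8%, 33.8%, 50.5%, 33.5%, 28.5% and 34.2% in that order, so the list's shares lay under the background with ANIT, APAP, MDA, CCl4 and GAL and above it with TAA and ConA. Bhlhe40, an E-box repressor, rose in ConA livers from 37.8 to 421 CPM (3.52 ± 0.41, adjusted p 0.000192) and in TAA livers from 45.1 to 141 (1.69 ± 0.20, adjusted p 7.4e-07), the same groups in which Nr1d1 rose. Its relative Bhlhe41 had means of 3.475 CPM in ConA and 2.06 CPM in TAA livers, beside vehicle means of 0.0325 and 0.108 CPM. With ANIT, APAP and MDA it did not pass the filter on low values against the gavage mice. With ConA and TAA it passed through the treated livers, so no test of it is given, though the list counts include it as higher in both. Nfil3, a repressor at D-boxes, rose with ConA (1.96 ± 0.34) and CCl4 (0.78 ± 0.17) and fell with GAL (-2.42 ± 0.26) and MDA (-0.74 ± 0.21). Of the cryptochromes, Cry2 rose with ConA (1.35 ± 0.31) and fell with CCl4 (-0.60 ± 0.19), and Cry1 was called higher with CCl4 against the 2 saline mice (0.96 ± 0.29) but not against the 17 vehicle mice (0.20 ± 0.38, adjusted p 0.689).

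Rora, an activator that competes with the REV-ERBs for the same element, was called higher than in the gavage mice with ANIT (0.78 ± 0.24), MDA (0.83 ± 0.20) and TAA (0.60 ± 0.19). Against the 17 vehicle mice the Rora call remained with MDA (0.73 ± 0.23, adjusted p 0.0138) and was lost with ANIT (adjusted p 0.0857) and TAA (adjusted p 0.108). With ConA Rora was at 0.995 ± 0.561 against saline, not called (adjusted p 0.194), and at 1.49 ± 0.23 against the 17 (adjusted p 3.9e-06). Hlf, the third PAR bZIP gene, fell with TAA (-1.43 ± 0.44), and Clock was called with none of the 7 compounds.

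Of 20 liver genes known to follow the clock, 10 were called with ANIT (6 higher, 4 lower), 10 with APAP (3 and 7), 13 with MDA (8 and 5), 16 with TAA (8 and 8), 12 with CCl4 (3 and 9), 12 with GAL (3 and 9) and 15 with ConA (9 and 6). Beside them 28.2%, 31.8%, 33.8%, 50.5%, 33.5%, 28.5% and 34.2% of all genes were called in that order. Their median log2 fold change was -0.48 with CCl4 and -0.72 with GAL, beside the lower hepatocyte sum of both groups, and 0.86 with ConA. Of 8 glucocorticoid responsive genes, a list that holds Per1, 4 were called higher and 1 lower with ANIT and likewise with ConA, 3 and 1 with APAP and likewise with MDA, 4 and 2 with TAA, and 1 and 3 with CCl4 and likewise with GAL. Per1 is among those higher in each but CCl4, and the shares of all genes called are those just given. Of 6 heat shock genes, 6 were called higher with TAA (26.4% of all genes higher), 5 with GAL (12.8%), 4 with CCl4 (18%), 2 with APAP (17.3%) and 1 with ANIT (14%), and 1 was called lower with MDA (16.4% lower). With ConA 0 were called by edgeR against the 2 saline mice, at a median log2 fold change of 1.36, and 5 were called higher against the 17 vehicle mice, at a median of 0.99, where 68% of all genes were called.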

How the data were processed

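Bulk RNA-seq was measured in 57 mouse livers. The authors deposited estimated counts per gene, made with Salmon 1.6.0 and R 4.1.3 on GRCm39, per the submitters' processing notes. Library preparation was stranded and reads were single-end, per the labels' protocols. Of the gene IDs, 51482 matched a GENCODE M21 symbol and 2825 did not. The lowest nonzero values fell from a median of 1.14 in transcripts of 800 to 1200 nt to 0.197 at 4000 to 6000 nt, so the values look corrected for length. Estimated counts were rounded and fitted with edgeR 4.0.16 (R 4.3.3, limma 3.58.1, the data.table package at version 1.17.8), using TMM, filterByExpr and the two-sided quasi-likelihood test on the groups compared, without covariates, with Benjamini-Hochberg adjustment and a threshold of 0.05. The procedure was tested on simulated data. Alternatives were DESeq2 1.42.0, library total scaling, no filter, a mean CPM of at least 5, the number range as covariate, a block on the mouse number, mice 1 to 4 or 5 to 12 alone, and leaving out mice. The covariate set mice 1 to 4 against all higher numbers, so it did not separate gavage mice 15 to 18 from those numbered 5 to 12. Leaving out gavage mice 15 to 18 or APAP mouse 1 was chosen after seeing the data. Correlations used a pseudocount of 1 CPM and 100000 permutations. All 10 members were named in every comparison, and from the other lists the transcription factors and cryptochromes of the clock where called; some genes that these rules name are not reported here. The members, lists and number ranges were chosen with earlier results of these data known. Because the values are not whole reads, counting intervals were not computed.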

Additional observations from a re-analysis of the deposited data

Results flagged for a closer look

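Each member was examined in each group of 4 to 10 mice for a single mouse far from the others, with Dixon's criterion at 95% on log2(CPM + 1), a scale that draws high values in. The levels below are CPM, and on that linear scale the picks can differ: Per1 in APAP mouse 1, at 113 CPM, was not picked out on the log scale. Of 100 such sets 5 were picked out, and chance alone picks about 1 in 20, that is 5. In ANIT livers Arntl was at 5.60 CPM in mouse 4 and at 9.37 to 9.65 in the other 3. In the gavage vehicle mice numbered 1 to 4, Per1 was at 2.12 CPM in mouse 1 and at 7.15 to 8.46 in the others. In those numbered 7 to 12, Per2 was at 7.41 CPM in mouse 10 and at 2.57 to 3.54 in the others, and Ciart was at 7.96 CPM in mouse 12 and at 1.36 to 1.98 in the others. In TAA livers Nr1d2 was at 4.51 CPM in mouse 3 and at 13.2 to 17.0 in the others.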

How the results depend on the processing

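Among 95 single-member results, 693 recomputed values under alternatives that kept all replicates of a range gave 564 with the same direction and call, 112 with the call lost, 12 with a call gained and 5 with the sign turned. Of 314 values with 1 mouse left out, 254 kept the call, 59 lost it, 1 gained it and 0 turned. The 5 that turned sign were near 0 under the alternative: Arntl with ANIT against gavage was 0.026 with the number range as covariate, 0.013 with the block and 0.012 in mice 1 to 4 alone, Nr1d1 with APAP against gavage was 0.006 in mice 1 to 4, and Arntl with CCl4 against the 17 vehicle mice, called lower at -0.53 ± 0.13 (adjusted p 0.00174), was 0.007 with library total scaling. The cause was not tested.

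Counts of called members moved by more than 1.5 times as follows. With a mean CPM of at least 5, which tests fewer members, ANIT gave 2 and MDA 1 against gavage, and against the 17 vehicle mice ANIT gave 2, MDA 1, TAA 4, CCl4 3 and ConA 5, CCl4 against GAL 3 and the 4 gavage compounds 2. Without a filter GAL gave 3 against saline, MDA 2 against the 17 vehicle mice, gavage 15 to 18 against 7 to 12 gave 1 and the 4 gavage compounds 3. With library total scaling the last 2 gave 1 and 3. DESeq2 gave 3 for gavage 1 to 4 against 15 to 18. With the number range as covariate GAL gave 3 against saline, ANIT 3 and MDA 2 against the 17 vehicle mice, and the 4 gavage compounds 3. Mice 1 to 4 alone, with fewer samples, gave 0 for APAP and 0 for MDA against gavage, and against all vehicle mice of that range 3 for ANIT, 0 for APAP, 0 for MDA, 4 for TAA and 3 for GAL. Mice 5 to 12 alone gave 0 for APAP and, for ConA against saline, 3.

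Leaving out 1 mouse gave 3 to 6 members for GAL against saline, 3 to 5 for ANIT against the 17 vehicle mice, 0 to 2 for gavage 15 to 18 against 7 to 12 and 3 to 6 for the 4 gavage compounds. A lone remaining saline mouse was assumed to vary like the treated mice.

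The mouse numbers name different animals. In none of the 5 comparisons with 2 or more same-numbered pairs did every pair have deviations correlated over 0.1. For TAA 3 of 4 pairs were over it, from a lowest r of 0.00746 to a highest of 0.274. The single pairs of ConA and CCl4 had r 0.128 and -0.152. Mouse 1 had the highest hepatocyte sum of the gavage vehicle (117420 CPM), ANIT (110100), APAP (93806), TAA (116430) and CCl4 (32009) groups. In the MDA group mouse 1 was at 64180 CPM and the highest at 125610. Whether same-numbered mice share an effect was not tested further. With the number as a block, APAP gave 0 members against gavage, ANIT 3 and CCl4 3 against the 17 vehicle mice, and the 4 gavage compounds 2. The block could not be fitted for CCl4 against saline, ConA against saline and CCl4 against GAL.

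Low values limit Per3, Npas2 and Ciart, at or under 3 estimated counts in 3, 2 and 2 libraries, and the saline groups hold 2 mice each. The values look corrected for length, so this cut stands for different numbers of reads in transcripts of different length.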
